A study of Bos taurus with 14 samples.

Results

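Immediate-early genes are a small group of genes that cells transcribe within minutes of a stimulus, before any new protein has to be made. Of 9 such genes considered here (FOS, JUN, JUNB, JUND, EGR1, ATF3, DUSP1, IER2 and IER3), 6 had a probe whose name in the array files, or gene symbol in brackets in the probe's description, was that of the gene: FOS, JUN, EGR1, ATF3, IER2 and IER3, with 1 probe each. DUSP1 was reached outside that naming rule, through 1 probe that the files call MKP-1, a synonym of DUSP1 in the RefSeq gene table. JUNB and JUND are not analysed here. This gave 7 genes of the 5888 that a probe could be assigned to, and 7 of the array's 15011 distinct probe sequences.

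The samples came from Holstein cattle, heifers or steers, that received an oral dose of β-cryptoxanthin on day 0, at 0.2 mg for each kg of body weight. β-Cryptoxanthin is a carotenoid pigment that animals can convert to vitamin A. There were 4 groups on 14 single-colour arrays: liver on day 7 and liver on day 0 of animals 58, 61 and 66, and peripheral blood neutrophils on day 7 and on day 0 of animals 25, 26, 32 and 34. An untreated group is not analysed here, and the 2 days compared are always those of the same treated animals. Ages, the way the liver was sampled, the way neutrophils were isolated, and whether the day 0 sample was taken before the dose are not given in the sources used here.

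FOS and JUN are subunits of AP-1, a dimeric transcription factor that binds DNA through a basic leucine zipper. EGR1 is a zinc-finger transcription factor, and ATF3 is a stress-induced leucine zipper protein that can repress its targets. These genes are switched on through the mitogen-activated protein (MAP) kinases and their messengers are short-lived. DUSP1 is a phosphatase that removes phosphate from MAP kinases and so ends the signal, and it is also induced by glucocorticoids. IER2 and IER3 are early-response proteins, of which IER3 is known for effects on cell survival. In tissue and blood cells the group is known to respond to handling, excision and isolation of the sample as well as to signals within the animal, and its levels are therefore often read as a measure of sampling stress and cell activation.

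What each array measured is 1 stretch of 60 bases per gene, and the sequences are shown because every value below rests on a single probe. The JUN and EGR1 probes are printed whole. For the others the last 30 bases are given, and capitals mark AATAAA, the signal that precedes the poly(A) tail, where a probe has it.
JUN: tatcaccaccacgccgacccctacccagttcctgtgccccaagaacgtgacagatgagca
EGR1: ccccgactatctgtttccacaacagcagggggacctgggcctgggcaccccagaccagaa
FOS: aggaccttatctgtgcgtgaaacacaccag
ATF3: gtttctgtgaaatcctcagagtgtttagtc
DUSP1 (probe MKP-1): cagcactggaaagcacccacgtgttgattt
IER2: agaatcgccagataggaaAATAAAgaccaa
IER3: aacacaAATAAActtgatttactgtcccaa

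The letters AATAAA were searched for on both strands of all probes. They occurred in 2 of the 7 probes on the printed strand, starting at base 49 of the IER2 probe and at base 37 of the IER3 probe, and in 11.3% of all 15011 probes (4.2% on the other strand, with none of the 7). The GC content was highest in the EGR1 probe (63.3%), followed by JUN (58.3%), FOS (55.0%), IER3 (45.0%), IER2 (41.7%), DUSP1 (40.0%) and ATF3 (38.3%). Probes differ in how well they bind, so levels of different genes are not set against each other.

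Levels are given as a percentage of the 75th percentile of the processed signals of the same array, and changes as log2 of day 7 minus log2 of day 0. Between 57.1 and 76.7% of the spots of an array were well above background. The weakest array was that of day 7 neutrophils of animal 34, with a median processed signal of 48.2 and a 75th percentile of 568.3. All 17 hepatocyte markers with a probe were well above background on every liver array, and all 12 neutrophil markers on every neutrophil array. Markers of the other tissue were in part detected as well. On every neutrophil array, 5 of the 17 hepatocyte markers were well above background on day 7 and 6 on day 0. On every liver array, 6 of the 12 neutrophil markers were well above background on day 7 and 8 on day 0. The summed level of hepatocyte markers was at least 102834.8% in liver and at most 1155.4% in neutrophils. That of neutrophil markers was at least 65175.3% in neutrophils and at most 1078.9% in liver. The liver arrays shared 1 slide and the neutrophil arrays the other, and each day filled its own row of arrays, so tissue and slide, and day and row of arrays, cannot be told apart. The number of arrays limits the precision throughout.

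**Figure D1:**
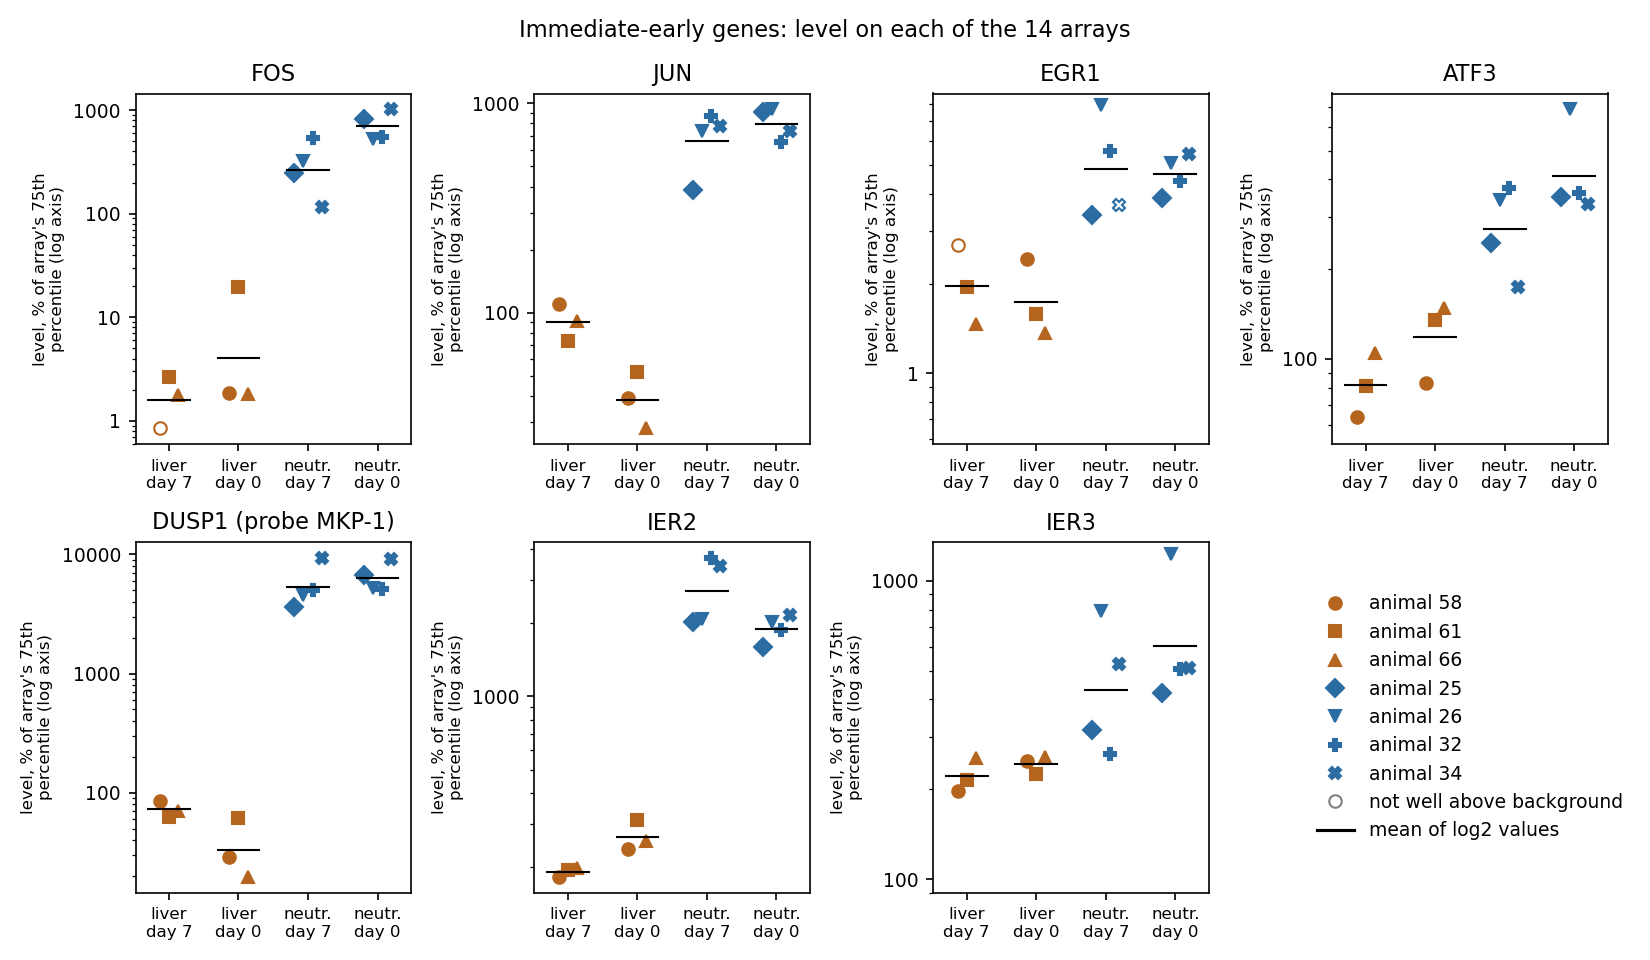
Level of each gene on each of the 14 arrays, as a percentage of the array's 75th percentile on a log axis that differs between panels, with 1 symbol per animal, a line at the mean of the log2 values of the group and open symbols where the probe was not well above background. All 7 genes were lower on every liver array than on any neutrophil array, and FOS on the day 0 liver array of animal 61 (19.6%) stands apart from the other liver arrays (0.848 to 2.64%).

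Every gene stood lower in liver than in neutrophils. On day 0 the difference, liver minus neutrophils, was -7.61 ± 0.39 for DUSP1 (SE, 3 livers against 4 neutrophil samples; limma, adjusted p = 4.15e-07), a 195-fold lower level in liver. It was -7.45 ± 0.80 for FOS (limma, adjusted p = 3.5e-05) and -4.37 ± 0.24 for JUN (limma, adjusted p = 6.65e-07). Smaller differences were found for IER2 (-2.83 ± 0.18), ATF3 (-1.80 ± 0.32), EGR1 (-1.43 ± 0.23) and IER3 (-1.32 ± 0.35), with limma adjusted p of 1.25e-06, 0.000794, 0.000489 and 0.00777 in that order. The sizes depend on the place of the spot, described below, on the day and on the background correction and normalization. With the trend along the rows of spots removed, the day 0 difference was -6.36 ± 0.38 for DUSP1 and -3.80 ± 0.25 for JUN. On the day 7 arrays it was -6.19 ± 0.36 for DUSP1, -2.88 ± 0.35 for JUN and -3.82 ± 0.31 for IER2.

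All 7 probes passed as lower in liver, where 43.5% of all 11490 probes tested did so and 83.1% passed in either direction, so a pass in this contrast is common to much of the array. In size, FOS and DUSP1 had more extreme differences: 0.9% and 0.8% of the tested probes lay at or below theirs. On the day 7 arrays the difference for IER3 was -0.96 ± 0.40 and did not pass (limma, adjusted p = 0.0602), and EGR1 was not tested there because it was not well above background on every array of either tissue. These are levels in bulk RNA, in which fewer cells of a type and less RNA per cell cannot be told apart.

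Between the days, no immediate-early gene passed the test in either tissue at an adjusted p of 0.05. In liver 0 of the 7 passed, where 3.98% of all 10928 probes did (2.67% higher and 1.31% lower on day 7, limma). At an unadjusted p under 0.05, 4 of the 7 were found in liver (JUN and DUSP1 higher, ATF3 and IER2 lower), beside 1954 of the 10928 probes. In neutrophils 0 of the 7 passed, where 0.0% of all 9447 probes did. At an unadjusted p under 0.05, 1 of the 7 (FOS, lower) was found there, beside 1267 of the 9447 probes. The number of liver calls rested on all 3 animals: it was 0 without animal 58, and at most 115 higher and 44 lower without another animal.

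**Figure D2:**
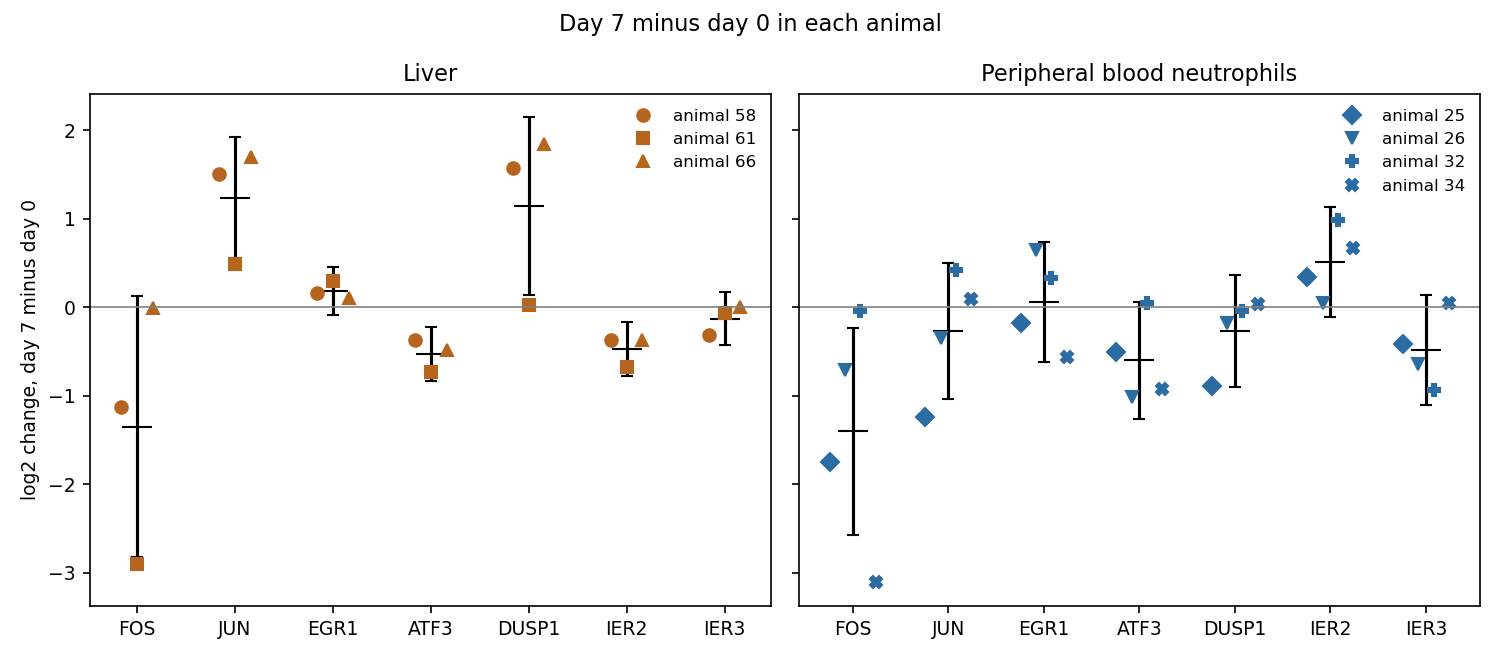
Change of each gene in each animal, day 7 minus day 0 on the log2 scale, in liver (left) and neutrophils (right), with a horizontal dash at the fitted mean and bars for its 95% confidence interval. FOS lay between -3.11 and -0.04 in the 4 neutrophil pairs, its liver point of animal 58 was not measured above background on day 7, and IER2 lay below 0 in all 3 livers and above 0 in all 4 neutrophil pairs.

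FOS is the AP-1 subunit that is present only transiently in most cells. In neutrophils its level was 247.2, 324.8, 541.6 and 117.2% in animals 25, 26, 32 and 34 on day 7, against 829.6, 529.6, 556.0 and 1015.2% in the same animals on day 0. Every animal was lower on day 7, by little in animal 32 and by most in animal 34, and the ranges of the days overlap through animal 32 alone. The group means were 307.7 ± 177.9% on day 7 and 732.6 ± 232.1% on day 0 (SD, n = 4 each).

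The fitted change of FOS in neutrophils was -1.40 ± 0.49 on the log2 scale (SE; 95% confidence interval -2.57 to -0.24), 2.64-fold lower on day 7. It did not pass (limma, unadjusted p = 0.0249, adjusted p = 0.333), although 1.3% of all probes had a change at or below it. A lower level in every animal was seen in 13.3% of the probes tested. Without animal 34, whose day 7 array was the weakest, the change was -0.83 ± 0.35 (limma, adjusted p = 0.357).

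With arrays weighted by their agreement with the fit, FOS did pass in neutrophils (-1.41 ± 0.27, limma, adjusted p = 0.011), as did JUN (-0.84 ± 0.24, adjusted p = 0.0401) and ATF3 (-0.63 ± 0.18, adjusted p = 0.0417). In that fit 12.4% of all probes passed as higher and 5.84% as lower on day 7. The weights were 4.34 for animal 25, 1.91 for animal 26, 0.42 for animal 32 and 0.29 for animal 34, so the values follow mostly animal 25.

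In liver, FOS was close to the detection limit. Its level was 0.848, 2.64 and 1.78% in animals 58, 61 and 66 on day 7, against 1.86, 19.6 and 1.80% on day 0. The day 0 liver of animal 61 was the only one in which FOS was readily measured, and the other 5 arrays lay within 0.848 to 2.64%. In animal 58 the day 7 value was not well above background, and the lowest level well above background on that array was 4.18%, above the day 0 value of the animal, so its change was not measured. FOS entered the liver test through day 0, where all 3 arrays were well above background, and the fit takes in the unmeasured day 7 value of animal 58. Its fitted change of -1.35 ± 0.56 (SE; limma, adjusted p = 0.317) is therefore given for completeness, and the measured drop rests on animal 61, since animal 66 was level. The SD of FOS over the 3 day 0 livers was 1.98 on the log2 scale, above that of 99.4% of the probes tested (median 0.23).

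JUN is the partner of FOS in AP-1. In liver its level was 110.2, 72.8 and 90.8% in animals 58, 61 and 66 on day 7, against 39.1, 51.8 and 28.0% on day 0. Before the row correction given below, all day 7 livers were above all day 0 livers, a pattern found in 7.35% of the probes tested. The change was 1.23 ± 0.26 (SE; 95% confidence interval 0.54 to 1.92), 2.34-fold higher on day 7, and did not pass (limma, unadjusted p = 0.00659, adjusted p = 0.0952).

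In neutrophils JUN was 382.9, 734.3, 872.5 and 781.5% in animals 25, 26, 32 and 34 on day 7, against 902.6, 933.4, 651.9 and 736.3% on day 0. It was lower in animals 25 and 26 and higher in animals 32 and 34, and the days overlap. The change was -0.27 ± 0.33 (SE; 95% confidence interval -1.04 to 0.50; limma, adjusted p = 0.707), and 0.05 without animal 25. The liver change exceeded the neutrophil change of JUN by 1.5 ± 0.46, which did not pass either (limma, adjusted p = 0.189, where 1.15% of 8838 probes passed). With the trend along the rows of spots removed, this difference was 1.01 ± 0.47 (limma, adjusted p = 0.445).

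Before the row correction given below, DUSP1, the phosphatase, was higher on day 7 in each liver, a pattern of 17.8% of the probes tested. In 1 of them the difference was very small. Its level was 85.8, 62.8 and 70.8% in animals 58, 61 and 66 on day 7, against 28.9, 61.8 and 19.7% on day 0. The days do not overlap, as in the 7.35% of probes with day 7 higher, but animal 61 was nearly level (a change of 0.02) while animals 58 and 66 had changes of 1.57 and 1.84. The mean change was 1.14 ± 0.38 (SE; 95% confidence interval 0.14 to 2.15; limma, adjusted p = 0.229).

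In neutrophils DUSP1 was 3637.1, 4602.0, 5008.1 and 9337.6% in animals 25, 26, 32 and 34 on day 7, against 6757.1, 5231.2, 5161.4 and 9149.9% on day 0. Animal 34 was highest on both days, only animal 25 differed clearly between the days, and the change was -0.27 ± 0.27 (SE; limma, adjusted p = 0.638). The liver change exceeded the neutrophil change by 1.42 ± 0.47 (limma, adjusted p = 0.216). With the trend along the rows of spots removed, this difference was 0.35 ± 0.47 (limma, adjusted p = 0.78).

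The place of the spot on the array moves with the liver values of both genes. The DUSP1 probe sits in row 4 and the JUN probe in row 20 of the 192 rows of spots, and in liver the median change of all tested probes was 0.54 in rows 1 to 16, 0.09 in rows 17 to 40, -0.04 in rows 41 to 152, -0.09 in rows 153 to 176 and -0.38 in rows 177 to 192. In neutrophils the same medians lay between -0.09 and -0.05. With the trend along the rows removed from each array, the liver change was 0.05 for DUSP1 (limma, adjusted p = 0.962) and 0.71 ± 0.29 for JUN (adjusted p = 0.318). In animals 58, 61 and 66 the changes were then 0.29, -1.05 and 0.92 for DUSP1. For JUN they were 0.90, -0.09 and 1.31, so neither gene was then higher on day 7 in animal 61.

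Among the 60 tested probes nearest to its own spot, DUSP1 had a higher liver change than 61.7%, and their median was 0.83. JUN had a higher liver change than all 60 of its neighbours, whose median was 0.21 (SD 0.31). Without animal 61, both genes passed before any correction for rows: JUN at 1.60 ± 0.14 and DUSP1 at 1.71 ± 0.15 (limma, adjusted p = 0.0426 each). JUN also passed with normexp background correction and quantile normalization (1.11 ± 0.21, adjusted p = 0.0483). The other 5 genes lie in rows 48 to 141, and removing the row trend moved their liver changes by little: to -1.32 for FOS, 0.07 for EGR1, -0.61 for ATF3, -0.44 for IER2 and -0.24 for IER3.

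**Figure D3:**
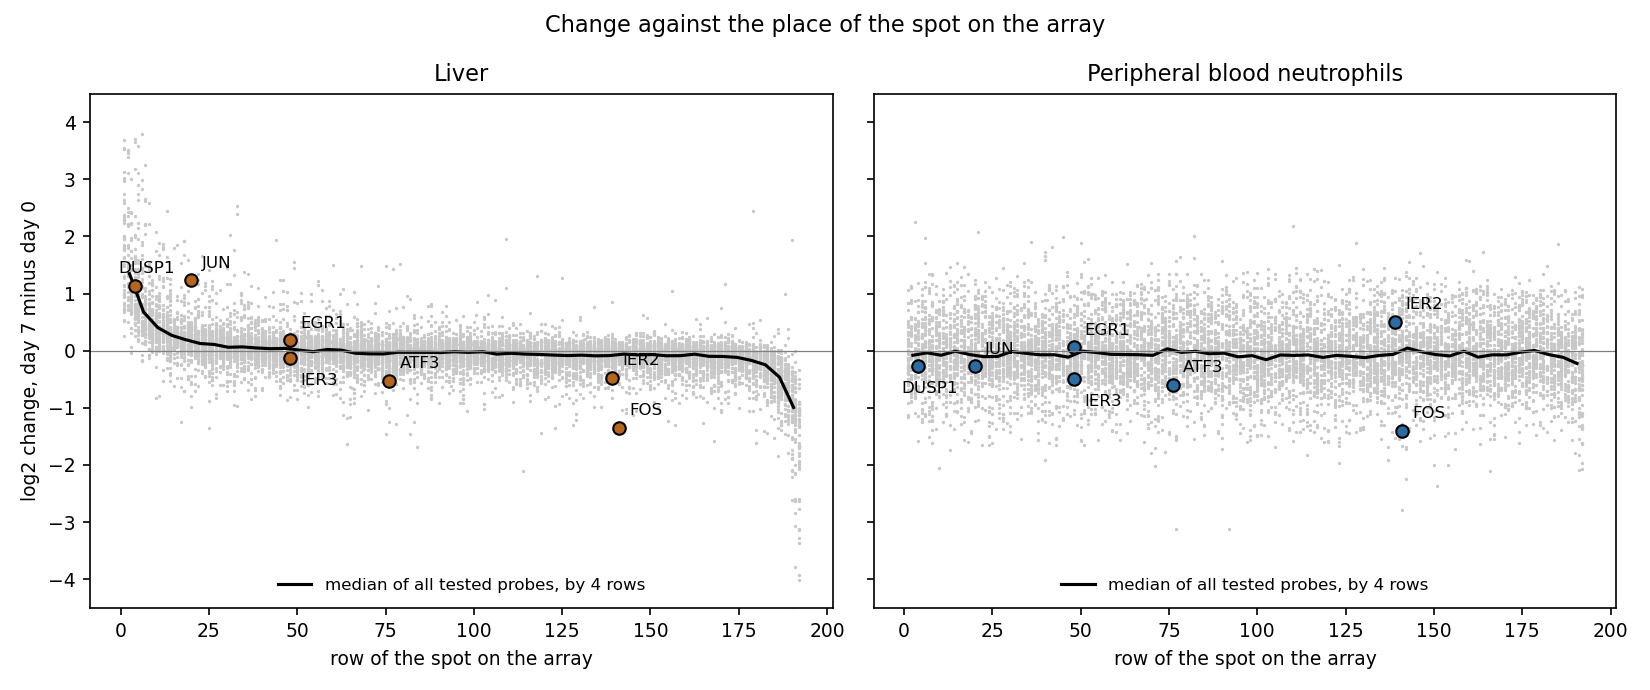
Change of every tested probe (grey), day 7 minus day 0 on the log2 scale, against the row of its spot, with the median of every 4 rows as a line and the 7 genes as labelled points, for liver (left) and neutrophils (right). The vertical axis ends at ±4.5, beyond which 23 liver probes and 0 neutrophil probes lie. In liver DUSP1 lies on the line and JUN above it, and FOS lies below the line in both tissues.

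ATF3, the stress-induced factor, had negative mean changes in both tissues. In liver its level was 64.1, 81.4 and 105.1% in animals 58, 61 and 66 on day 7, against 82.8, 134.9 and 147.7% on day 0. It was lower on day 7 in each animal, as were 22.6% of all probes tested, although the groups overlap. The change was -0.53 ± 0.12 (SE; 95% confidence interval -0.84 to -0.22; limma, unadjusted p = 0.00752, adjusted p = 0.102).

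In neutrophils ATF3 was 245.1, 340.1, 374.9 and 174.7% in animals 25, 26, 32 and 34 on day 7, against 348.5, 689.6, 361.2 and 331.0% on day 0. It was lower in 3 of 4 animals, animal 32 was nearly level, and animal 26 stood apart on day 0. The change was -0.60 ± 0.28 (SE; limma, adjusted p = 0.392). The liver and neutrophil changes differed by 0.07, with a 95% confidence interval from -0.67 to 0.81.

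IER2 was the gene whose course differed in sign between the tissues in every animal. In liver its level was 182.1, 194.0 and 198.2% in animals 58, 61 and 66 on day 7, against 235.7, 311.0 and 255.6% on day 0. The days did not overlap, a pattern with day 7 lower in 7.94% of the probes tested. The day 7 livers were close together, with an SD of 0.06 on the log2 scale, above that of 9.8% of the probes. The change was -0.47 ± 0.12 (SE; limma, unadjusted p = 0.0114, adjusted p = 0.13).

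In neutrophils IER2 was 2015.9, 2071.5, 3687.3 and 3415.4% in animals 25, 26, 32 and 34 on day 7, against 1594.5, 2006.3, 1865.0 and 2143.5% on day 0. It was higher in 4 of 4 animals, as were 11.2% of the probes tested, with a small difference in animal 26. The change was 0.51 ± 0.26 (SE; limma, adjusted p = 0.425). The liver change minus the neutrophil change was -0.98 ± 0.30 (95% confidence interval -1.67 to -0.30; limma, unadjusted p = 0.0102, adjusted p = 0.185).

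IER3, the survival-related early-response protein, was set apart in neutrophils by 1 animal. Its level there was 316.3, 790.9, 263.4 and 527.7% in animals 25, 26, 32 and 34 on day 7, against 422.1, 1231.4, 506.6 and 511.2% on day 0. Animal 26 was the highest on both days, and its SD on day 0 (0.69 on the log2 scale) was above that of 95.2% of the probes. The change was -0.49 ± 0.27 (SE; limma, adjusted p = 0.439), with 3 of 4 animals lower.

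In liver IER3 was steady, at 197.9, 214.9 and 255.5% in animals 58, 61 and 66 on day 7, against 247.9, 224.9 and 256.4% on day 0. The change was -0.13 ± 0.11 (SE; 95% confidence interval -0.43 to 0.17; limma, adjusted p = 0.629). The SD of the day 0 livers was 0.10, above that of 13.7% of the probes.

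EGR1 was near the detection limit in both tissues. In liver its level was 2.69, 1.94 and 1.46% in animals 58, 61 and 66 on day 7, against 2.41, 1.58 and 1.36% on day 0, and the day 7 value of animal 58 was not well above background. In neutrophils it was 3.40, 7.94, 5.58 and 3.68% in animals 25, 26, 32 and 34 on day 7, against 3.86, 5.07, 4.43 and 5.43% on day 0, and the day 7 value of animal 34 was not well above background. The days overlap in both tissues. The change was 0.18 ± 0.10 in liver (SE; limma, adjusted p = 0.453) and 0.06 ± 0.29 in neutrophils (adjusted p = 0.931).

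The neighbours in the order of group levels separated by tissue and seldom by day. For each of the 7 genes both liver groups stood below both neutrophil groups without overlap, as they did for 31.6% of the 11490 probes tested. Within neutrophils the 2 days overlapped for all 7 genes. Within liver they overlapped for FOS, EGR1, ATF3 and IER3, and did not for JUN and DUSP1 (day 7 higher, as in 7.35% of all probes tested) and IER2 (day 7 lower, as in 7.94%). These levels are not corrected for the row trend. With it removed, the changes of JUN and DUSP1 in the liver of animal 61 were -0.09 and -1.05.

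The day 0 liver of animal 61 had the highest level of 4 of the 7 genes among the day 0 livers: FOS, JUN, DUSP1 and IER2. Of 23 other immediate-early genes tested in liver it had the highest level of 14 (60.9%), against 29.8% of all probes tested. On day 7 the same animal had the highest level of 1 of the 7 and of 8 of the 23 (34.8%), against 26.2% of all probes. These counts describe 1 array that was singled out after its FOS value was seen, and no test was made.

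The summed level of neutrophil markers was also highest on that array, through 1 gene. The summed level of the 12 neutrophil markers with a probe was 292.6, 348.1 and 348.8% in animals 58, 61 and 66 on day 7, against 424.4, 1078.9 and 449.3% on day 0. Lactoferrin (LTF), a granule protein of neutrophils, stood at 804.5% on the day 0 array of animal 61. Without LTF the sum was 235.9, 275.8 and 235.9% in animals 58, 61 and 66 on day 7, against 225.1, 274.4 and 216.9% on day 0, so that animal 61 was about level between the days. The sums were not corrected for the row trend. ALOX5AP and CATHL1 were not well above background on any liver array. Of the 12 markers, 6 were well above background on every day 7 liver array and 8 on every day 0 liver array. Of the 8 markers tested, 6 had a negative change and 0 passed. The median change was -0.37 (-0.04 over all probes), and -0.35 with the row trend removed. At an unadjusted p under 0.05 there were 5 (limma), where 17.9% of all probes tested in liver reached it. The part of blood neutrophils in the FOS level was not tested.

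Skeletal muscle markers also differed between the liver groups, and all 9 tested passed as higher on day 7, where 2.67% of all probes did. Of the 10 with a probe, 9 were well above background on every day 7 liver array and 1 on every day 0 liver array. Most therefore entered the test only through day 7, the group in which they were high. Their summed level was 505.4, 1948.8 and 463.7% in animals 58, 61 and 66 on day 7, against 7.69, 16.2 and 4.74% on day 0. Their part in the changes of JUN, DUSP1, ATF3 and IER2 was not tested. The muscle level on day 7 was highest in animal 61, which had the smallest changes of JUN and DUSP1 before the row correction. The same animal had the largest changes of ATF3 (-0.73) and IER2 (-0.68).

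In neutrophils, lymphocyte markers were higher on day 7 for 10 of 12 tested, with a median change of 0.44 (-0.07 over all probes), and none passed. Their summed level over 13 genes with a probe was 8932.2, 4658.8, 5038.4 and 13271.0% in animals 25, 26, 32 and 34 on day 7, against 4235.2, 2832.3, 3806.2 and 5568.3% on day 0. GZMB, a protease of cytotoxic lymphocytes, was the leading gene in animals 25 and 34 on day 7, at 5017.9 and 9605.1%. CD4, which marks helper T cells, was on no day 7 array well above background. Animals 25 and 34 were also the 2 with the most negative changes of FOS. The 1 eosinophil marker with a probe, CCR3, was lower in each animal, at 50.9 to 74.7% on day 7 against 114.2 to 370.7% on day 0. The part of these cells in the FOS and ATF3 values was not tested.

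**Figure D4:**
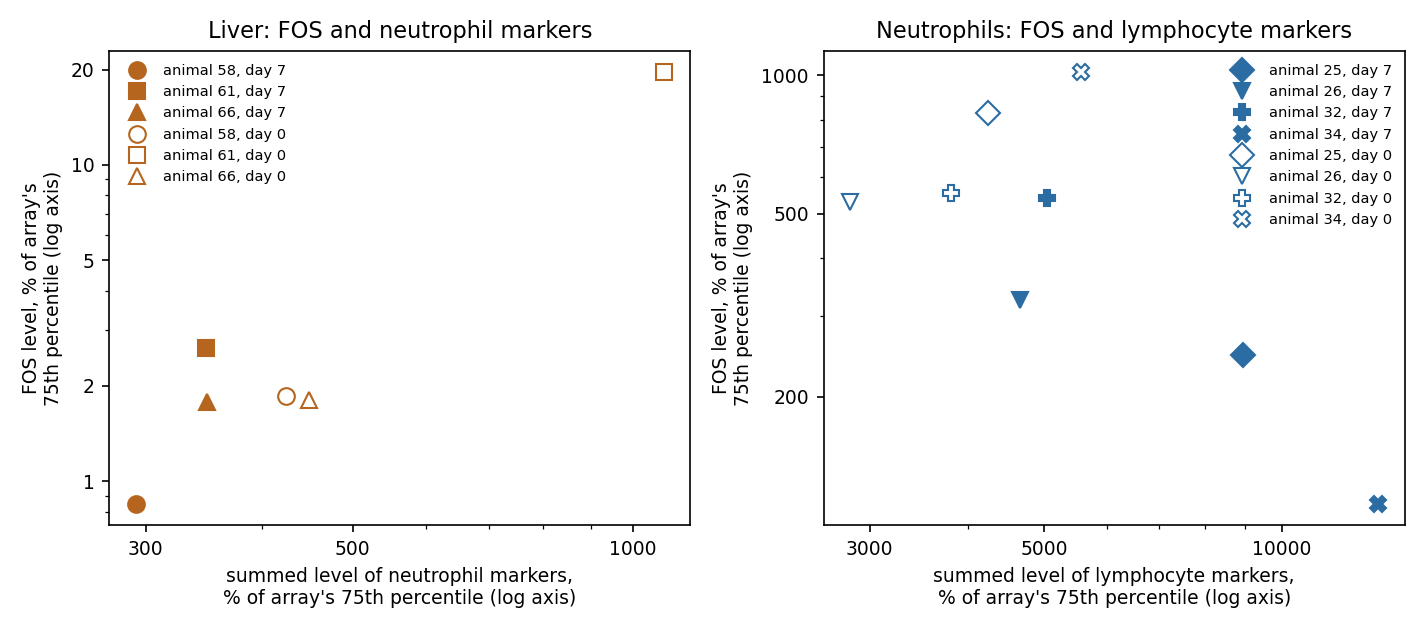
FOS level against the summed level of neutrophil markers on the 6 liver arrays (left) and of lymphocyte markers on the 8 neutrophil arrays (right), both as a percentage of the array's 75th percentile on log axes, with filled symbols for day 7 and open symbols for day 0. The day 0 liver of animal 61 lies alone at the upper right of its panel, a place on the marker axis that rests on LTF (804.5 of 1078.9%, and 274.4% without it). The day 7 neutrophils of animals 25 and 34 combine the highest lymphocyte marker sums (8932.2 and 13271.0%) with the lowest FOS levels (247.2 and 117.2%), whereas animal 34 on day 0 has the next highest sum (5568.3%) and the highest FOS level (1015.2%).

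Around the 7 genes, lists of their pathway were set beside them. Of 23 other immediate-early genes tested in liver, 1 was called higher and 1 lower on day 7, where 2.67% and 1.31% of all probes were. The median change was -0.20 (-0.04 over all probes), and -0.04 without animal 61. ID3, an inhibitor of basic helix-loop-helix factors, rose by 1.31 ± 0.17 (SE; limma, adjusted p = 0.0304), and HES1, a repressor downstream of Notch, fell by 4.02 ± 0.35 on the log2 scale (SE; adjusted p = 0.0156). NR4A1, an orphan nuclear receptor, came next with a change of 0.77 ± 0.13 (adjusted p = 0.0531). ID3 lies in row 11 and HES1 in row 192 of the spots, and with the row trend removed their changes were 0.48 (adjusted p = 0.334) and -3.33 (adjusted p = 0.078). NR4A1 lies in row 13, and its change was then 0.0 (adjusted p = 0.996).

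In neutrophils 0 of 22 other immediate-early genes passed, 17 had a negative change and the median was -0.42 (-0.07 over all probes). It was -0.15 without animal 34, whose day 7 array was the weakest, and -0.64 without animal 32. At an unadjusted p under 0.05 there were 4, where 13.4% of all probes tested in neutrophils and 17.9% of those in liver reached it, shares that also apply to the lists below. The smallest p belonged to GADD45G, a growth arrest protein (-1.65 ± 0.44, SE), RHOB, a small GTPase (-1.55 ± 0.44), and ID3 (0.87 ± 0.25), each with a limma adjusted p of 0.312.

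Other leucine zipper proteins were listed beside FOS and JUN, whether or not they pair with them. Of these, 1 of 12 tested in liver passed: NFE2L2, the regulator of antioxidant genes, was higher on day 7 (1.28 ± 0.14, SE, limma adjusted p = 0.0225). It lies in row 5 and its change was 0.23 with the row trend removed (adjusted p = 0.597). The remaining 2 with the smallest p were ATF1 (-0.40 ± 0.10, adjusted p = 0.137) and MAF (-0.44 ± 0.16, adjusted p = 0.257). With the row trend removed, the change was 0.11 for ATF1 (row 185) and -0.52 for MAF (row 74). In neutrophils 0 of 12 passed, with a median of -0.02 (-0.13 to 0.10 with 1 animal left out), and MAF had the smallest p (0.70 ± 0.31, adjusted p = 0.381), followed by XBP1 (0.39 ± 0.25) and ATF6B (-0.37 ± 0.24).

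In the MAP kinase cascade that feeds these genes, 1 of 13 tested in liver passed: MKNK1, a kinase of translation factor eIF4E, was lower on day 7 (-2.07 ± 0.21, SE; limma, adjusted p = 0.0186). It lies in row 192 and had a change of -1.39 with the row trend removed (adjusted p = 0.0973). MAPK14, the p38α kinase, had a change of 0.83 ± 0.17 (adjusted p = 0.0885) and ELK3, an ETS factor, one of -0.47 ± 0.12 (adjusted p = 0.141). With the row trend removed, the change was -0.22 for MAPK14 (row 5) and -0.45 for ELK3 (row 126). In neutrophils 0 of 14 passed, and the smallest p belonged to MAP3K2 (-1.03 ± 0.51, adjusted p = 0.412), MAP2K6 (-0.41 ± 0.27) and ELK4 (-0.47 ± 0.40).

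Of the other MAP kinase phosphatases and inhibitors, 0 of 8 passed in liver and 0 of 6 in neutrophils. At an unadjusted p under 0.05 there were 2 in each tissue. DUSP6, the phosphatase of ERK, had a change of -1.06 ± 0.37 in liver (SE; limma, adjusted p = 0.246) and of -0.82 ± 0.26 in neutrophils (adjusted p = 0.313). SPRY4, an inhibitor of receptor kinase signalling, had a fitted change of -0.68 ± 0.18 in liver (adjusted p = 0.154) and is among the 2 counted there. The SPRY4 change was not measured, since its level on every day 7 liver array lay below the lowest level well above background. That lowest level was 4.18, 1.14 and 1.41% on the day 7 liver arrays of animals 58, 61 and 66. DUSP10, a phosphatase of p38 and JNK, had a change of 0.93 ± 0.24 in neutrophils (adjusted p = 0.307). ERRFI1 in liver (0.47 ± 0.25) and SPRY2 in neutrophils (0.79 ± 0.36) did not pass.

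Glucocorticoid-induced genes, set beside DUSP1 because it shares that control, passed in 0 of 11 cases in liver and 0 of 9 in neutrophils, with 2 at an unadjusted p under 0.05 in each. The median changes were 0.03 in liver (-0.14 to 0.08 with 1 animal left out) and -0.09 in neutrophils (-0.21 to -0.12). ANGPTL4, an inhibitor of lipoprotein lipase, had the smallest p in liver (-0.63 ± 0.11, SE; limma, adjusted p = 0.0548), and ANXA1 had a change of -0.38 ± 0.23. In neutrophils these were CXCR4, the receptor that holds neutrophils in the marrow (-0.89 ± 0.29, adjusted p = 0.327), PCK1 (1.27 ± 0.44, adjusted p = 0.33) and IGFBP1 (-0.82 ± 0.36, adjusted p = 0.376).

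Of genes that neutrophils switch on when activated, 0 of 24 passed in neutrophils, 16 had a negative change, and 3 reached an unadjusted p under 0.05. ITGAM, an integrin subunit, had a change of -1.24 ± 0.32 (SE; limma, adjusted p = 0.306), CCL3, a chemokine, -1.0 ± 0.29 (adjusted p = 0.312) and PLAUR, the urokinase receptor, -0.79 ± 0.26 (adjusted p = 0.327). In liver 0 of 21 of that list passed, with 5 at an unadjusted p under 0.05. ITGAM there had a change of -0.49 ± 0.13 (adjusted p = 0.138) and CXCL3, a chemokine, 0.81 ± 0.25 (adjusted p = 0.207). The ITGAM change was not measured, since the gene was not well above background on any day 7 liver array (0.848, 1.1 and 1.37%).

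Heat shock and handling stress genes passed in 0 of 13 cases in each tissue, with 3 at an unadjusted p under 0.05 in each. In neutrophils the median was 0.33, against 0.11 without animal 32 and 0.08 with array weights. There HSP90AB1, a cytosolic chaperone, had a change of 1.24 ± 0.23 (SE; limma, unadjusted p = 0.00113, adjusted p = 0.301). HSPE1, a mitochondrial chaperonin, had a change of 1.02 ± 0.29 (adjusted p = 0.312) and SQSTM1, an autophagy receptor, of -1.47 ± 0.50 (adjusted p = 0.327). In liver the median was 0.12, and it was -0.06 with the row trend removed and 0.05 without animal 61. DNAJA1 (0.95 ± 0.19, row 6), HSPE1 (0.55 ± 0.11, row 14) and HSP90AA1 (0.28 ± 0.10) had the smallest p there, with limma adjusted p of 0.0849, 0.0832 and 0.276. With the row trend removed, their changes were -0.07, -0.18 and 0.30 in that order.

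The genes whose pattern was most like the mean of the 7 were found by Pearson's r over the arrays of a tissue. In liver the mean was taken over the 4 genes well above background on every array and not outside the naming rule (JUN, ATF3, IER2 and IER3), over 6 arrays, and the 5 closest of 3954 candidates were ANXA3 (0.99), NFE2L3 (0.99), MORF4L2 (0.98), PCNX1 (0.98) and HIF1A (0.97). In neutrophils, with FOS added and over 8 arrays, the 5 closest of 3503 were CCDC65 (0.97), EPN1 (0.96), FKBP11 (0.95), SORBS3 (0.94) and PRR13 (0.94). In liver JUN ran against the other 3 genes (r of -0.66 with ATF3, -0.71 with IER2 and -0.62 with IER3), so the mean there is no pattern that the genes share. The arrays share animals and their scaling, so these values are a description and carry no test.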

How the data were processed

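Members and lists were chosen with earlier results of these data known. Per the file headers, the spot intensities used are processed signals of Agilent Feature Extraction 9.5.1.1 (9.5 in the submitters' processing notes), from which background and a spatial trend had been subtracted. The mean and background intensities, used for 1 alternative, are uncorrected, per the file headers. The deposited log2 value table follows the same signals (r of 1) at 0.007 to 0.013 from a centring on the array's 75th percentile (column medians -3.55 to -2.69). No build was used.

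Control and outlier-flagged spots were left out, and log2 signals relative to the 75th percentile were averaged per probe sequence. Of 15011 probes, 5999 carried exactly 1 symbol, 2 several and 9010 none, by a RefSeq gene table (ARS-UCD2.0, names only). Probes entered a test if all arrays of either day had them well above background, as was true of all 7 members in both tissues. Tests were two-sided in limma 3.58.1 (R 4.3.3) with the animal as a block (no block in the tissue contrast), Benjamini-Hochberg adjusted over all probes tested, and the code was tested on simulated data. The labels pair the arrays by animal. The correlation of paired deviations was 0.66 (animal 58), 0.36 (61) and 0.68 (66) for liver, and 0.63 (25), 0.36 (26), -0.02 (32) and 0.25 (34) for neutrophils. Named beside the members are, per tissue, up to 3 genes of smallest p in each pathway list and the 5 genes most like the members; 1 gene of these lists is not reported here. Alternatives were no block, quantile and normexp normalization (offset 50), the authors' values, other filters, a loess row trend removed (span 0.3), 1 fit over all arrays, array weights, each animal left out and an adjusted p of 0.1. The planned promoter motif search was not run.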

Additional observations from a re-analysis of the deposited data

Results flagged for a closer look

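ATF3 in day 0 neutrophils of animal 26 stood apart from the other 3 animals, at a log2 level of 2.79 (689.6% of the array's 75th percentile, against 331.0 to 361.2% in the others). The gap to the nearest animal was 0.88 of the whole range. Levels and changes were examined in 21 groups of 4 neutrophil samples, of which this was the only 1 so marked, and chance marks about 1 in 20.

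The measured changes of IER2 had opposite signs in the tissues, and neither passed its test. A lower level on day 7 in every liver was seen in 22.6% of the probes tested there. In neutrophils, 11.2% of the probes tested were higher in every animal. The change, day 7 minus day 0, was negative in all 3 livers (-0.37, -0.68 and -0.37 in animals 58, 61 and 66) and positive in all 4 neutrophil pairs (0.34, 0.05, 0.98 and 0.67 in animals 25, 26, 32 and 34). The difference between the tissues was -0.98 and did not pass in the interaction test (limma, adjusted p = 0.185, range over its alternatives 0.0738 to 0.605).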

How the results depend on the processing

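Of 339 member values under an alternative, 318 kept their direction and their side of the threshold. Members that passed only under an alternative are given with the results above, and no call of a member changed when the animal block was dropped. Changes of sign were limited to main estimates between -0.27 and 0.18, and reached as far as -0.61 for FOS between the tissues. They were EGR1 in liver with normexp (-0.02), JUN in neutrophils without animal 25 (0.05; range with 1 animal left out -0.50 to 0.05), and EGR1 in neutrophils without animals 26 (-0.14) or 32 (-0.03; range -0.14 to 0.27). For the difference between tissues they were FOS with quantile normalization (-0.58) and without animals 25, 34, 58 or 66 (range with 1 animal left out -0.61 to 0.83), EGR1 with normexp (-0.04) and without animal 34 (range -0.08 to 0.32), and ATF3 without animals 26, 34 or 58 (range -0.07 to 0.29). Counts of all probes called higher and lower in liver (292 and 143) were 154 and 56 with no replicate block, 21 and 7 with the row trend removed, 0 and 0 with no filter on dim probes, 135 and 42 in 1 fit over all arrays, 483 and 306 at an adjusted p of 0.1, and 0 to 115 and 0 to 44 with 1 animal left out. In neutrophils (0 and 0) they were 22 and 2 in 1 fit over all arrays and 1170 and 552 with array weights. For the difference between tissues (65 and 37) they were 8 and 2 with the row trend removed, 17 lower with no replicate block, and 11 to 146 and 1 to 124 with 1 animal left out. In the tissue contrast 2847 were higher (4558) where probes had to be well above background on every array. The causes were not tested, apart from the smaller number of probes or samples that an alternative itself brings. An alternative chosen after seeing the data, the row trend removed together with animal 34 left out, gave FOS in neutrophils a change of -0.81 (adjusted p = 0.391). With 3 and 4 animals, FOS near background in liver and EGR1 in both tissues, small changes of these were not measurable.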

Other observations

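In neutrophils, the animal with the highest level was the same on both days for DUSP1 (animal 34) and IER3 (animal 26) and differed for the other genes. On day 0 animal 34 was the highest for 4 of the 7 genes and animal 26 for 3, whereas on day 7 animal 32 was the highest for 4, animal 26 for 2 and animal 34 for 1. On day 7 animal 32 was also the highest for 13 of 22 other immediate-early genes (59.1%) and for 15 of 24 genes of neutrophil activation (62.5%), against 33.1% of all probes tested. On day 0 animal 26 had the highest level of 10 of the 22 (45.5%), against 32.8% of all probes. These are counts over single arrays, and no test was made.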
